A study of Mus musculus with 23 samples.

Results

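Embryonic neural progenitor cells that carried wild-type histone H3.3 together with loss of Trp53 and a hairpin against Atrx (WT-AP, libraries 1, 2, 3 and 5) were compared with cells that had received an empty vector (EV ctl, libraries 4 and 5). These are 6 of the 23 libraries of the series, chosen by their column names in the later of the deposited count tables. All were from C57BL/6 mice and were labelled preneoplastic, 72 h after genes were delivered into the developing cortex by in utero electroporation with a piggyBac transposon. The cells were sorted for GFP and expanded before RNA was taken. EV ctl is labelled wild type. WT-AP is labelled H3.3WT O/E (overexpression), Trp53-/- (made with CRISPR/Cas9) and Atrx shRNA, so the 3 changes came together and cannot be told apart. EV-PDGFRA (3 libraries, Pdgfra O/E) and K27M-AP (4 libraries, H3.3K27M O/E in place of the wild-type histone, with Trp53-/- and Atrx shRNA) supplied a comparison that shares no library with WT-AP or EV ctl. K27M-APP (2 libraries) carries the changes of K27M-AP and Pdgfra O/E, and entered the fit that estimates the spread. Nothing in the labels says whether libraries of a group came from separate embryos or cultures, so each p-value reflects the spread among these libraries, which may be technical.

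The p53 protein, product of Trp53, is a transcription factor that is kept low by Mdm2 and stabilised by DNA damage and other stress. It binds response elements built of half-sites near its target genes and switches on inhibitors of the cell cycle, death genes, repair enzymes and genes that feed back on p53 itself. ATRX is a chromatin remodeller that works with DAXX to place the histone variant H3.3 at telomeres, repeats and other heterochromatin. Loss of p53 and ATRX and mutation of H3.3 occur together in paediatric and young adult gliomas.

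Total counts were 53138075 to 54543839 in EV ctl and 41929255 to 52091556 in WT-AP. The neural stem cell list summed to 8835 and 9710 CPM (counts scaled to the size of the library) in EV ctl and to 7736 to 9370 CPM in WT-AP, and all 20 of its genes passed the filter on low counts. Of the markers of other cell types, the lymphocyte list summed to 0.113 to 0.294 CPM and the red blood cell list to 0.177 to 0.76 CPM over the 6 libraries. Microglia and macrophage markers summed to 34.7 to 63.5 CPM over the 6. Ependymal and choroid plexus markers summed to 73.9 and 19.4 CPM in EV ctl 4 and 5 and 15.2 to 43.7 CPM in WT-AP, and fibroblast and meningeal markers to 15.9 and 20.7 CPM in EV ctl and 5.04 to 12.7 CPM in WT-AP. The endothelial and pericyte list summed to 2.57 and 3.57 CPM in EV ctl and 7.43 to 12.9 CPM in WT-AP. The EV ctl libraries stood apart from each other in dividing cells: Mki67, a protein of dividing nuclei, was at 316 and 42.5 CPM in EV ctl 4 and 5 and at 462, 631, 419 and 424 CPM in WT-AP 1, 2, 3 and 5. Top2a, the topoisomerase of replicating cells, was at 563 and 95.8 CPM in EV ctl 4 and 5 and at 747, 896, 763 and 789.5 CPM in WT-AP. They also differed in sex: 4 Y-linked genes summed to 0 CPM in EV ctl 4 and 233.7 CPM in EV ctl 5, and to 173.6, 245, 147 and 0.111 CPM in WT-AP 1, 2, 3 and 5. EV ctl 5 and WT-AP 1 and 3 also held Xist, at 43.9, 69.9 and 63.1 CPM. Because these are bulk samples, fewer cells of a type and less RNA per cell cannot be told apart.

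The sequences at the starts of some of the changed genes are shown first, because p53 acts through half-sites near its targets. The windows run from 250 bases before to 50 bases after the annotated start (RefSeq, GRCm38.p6, written 5′ to 3′ on the gene's strand), and capitals mark a match to the p53 half-site decamer. The decamer is its own reverse complement in form, so 1 search reads both strands. Cdkn1a, which encodes the cell cycle inhibitor p21, was the only gene that fell with a full response element in its window, meaning 2 half-sites no more than 13 bases apart. Only exact matches are marked and near matches stay in lower case, so the marked pair need not be the stretch that p53 binds. Its window is chr17:29090729-29091028 (+ strand), and that of Ccng1, which encodes the p53 feedback regulator cyclin G1, is chr11:40755237-40755536 (- strand).
Cdkn1a: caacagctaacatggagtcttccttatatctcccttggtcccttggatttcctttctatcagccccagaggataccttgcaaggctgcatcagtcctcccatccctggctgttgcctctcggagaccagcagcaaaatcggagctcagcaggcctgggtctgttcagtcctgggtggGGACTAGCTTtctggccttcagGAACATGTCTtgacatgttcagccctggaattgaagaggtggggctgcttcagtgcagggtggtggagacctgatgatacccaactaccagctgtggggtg
Ccng1: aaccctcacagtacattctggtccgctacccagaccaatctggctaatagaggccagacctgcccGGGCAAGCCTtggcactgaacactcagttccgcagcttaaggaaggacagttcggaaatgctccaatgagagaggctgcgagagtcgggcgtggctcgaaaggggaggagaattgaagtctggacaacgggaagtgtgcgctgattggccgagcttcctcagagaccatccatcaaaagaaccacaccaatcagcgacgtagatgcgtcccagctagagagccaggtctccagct

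Single half-sites with 10 bases on each side follow for genes of different roles. Bax and Aen act in cell death, at chr7:45467080-45467109 (- strand) and chr7:78895927-78895956 (+ strand). Polk encodes a bypass DNA polymerase, at chr13:96519399-96519428 (- strand), and Rchy1 a ubiquitin ligase for p53, at chr5:91962627-91962656 (- strand). The Polk window belongs to a RefSeq start that lies inside the gene (chr13:96480690-96542579, - strand), not at its outer end. Trp53 itself has a match at chr11:69580274-69580303 (+ strand), and Exoc4, a subunit of the exocyst, has one at chr6:33248915-33248944 (+ strand). B3galt5, a galactosyltransferase gene that rose, is shown as a match on the other side of the comparison, at chr16:96235686-96235715 (+ strand).
Bax: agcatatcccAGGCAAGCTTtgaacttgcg
Aen: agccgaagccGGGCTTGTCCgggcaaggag
Polk: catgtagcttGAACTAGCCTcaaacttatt
Rchy1: cactatgacaGAGCTTGTCTcctcaaggtg
Trp53: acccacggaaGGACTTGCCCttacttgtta
Exoc4: tttattgtccAGGCATGCCCgggaccggca
B3galt5: cttgccagcaGGGCATGTTCcccaggaacc

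A window was held for 36 of the 46 genes that fell, and 14 of these (38.9%) contained at least 1 half-site. Of the 17 genes that rose, 13 had a window and 2 (15.4%) contained one, Frrs1l and B3galt5. Over all 11667 tested genes with a window the share was 8.27%, and over all 32851 windows in the table, tested or not, it was 8.36%. A full element was found in 7 of the tested genes (0.06%). These shares are a description of the letters in short windows and were not tested.

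WT-AP cells had lost most of the RNA of the cell cycle inhibitor gene Cdkn1a and of the receptor genes Eda2r, Fas and Tnfrsf10b. Of 83 tested genes on the p53 lists 16 fell, by 6.25 (Eda2r) to 0.76 (Ei24) on the log2 scale. Fewer genes rose, among them the adhesion gene Cntn6, the semaphorin gene Sema7a and the kainate receptor gene Grik2. Of 20197 genes tested, 63 (0.312%) were called at an adjusted p below 0.05 by edgeR's quasi-likelihood test, 46 lower (0.228%) and 17 higher (0.0842%). DESeq2 called 448, of which 228 were higher, and all 63 were among them. At least a 2-fold change was seen in 43 of the falls and all 17 rises, at least 4-fold in 31 and 11, and at least 16-fold in 9 falls. The median log2 fold change over all genes tested was -0.002. In all 63 genes the 4 WT-AP libraries lay on one side of both EV ctl libraries, a separation seen in 9.61% of all genes tested in the lower direction and 10.6% in the higher. An unadjusted p below 0.05 was reached by 1074 genes in the lower direction (5.32%) and 953 in the higher (4.72%).

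How many calls survive depends on the libraries held. All 63 genes kept their direction under each of the 14 alternatives run. With EV ctl 5 left out, 22 of the 46 falls and 4 of the 17 rises were still called, and with EV ctl 4 left out 41 and 14. Without the WT-AP libraries 1, 2, 3 or 5, falls still called numbered 29, 26, 27 and 26 and rises 9, 11, 10 and 9. In all 6 of these fits 21 falls and 4 rises were called. With the replicate number as a block 18 falls and 4 rises were. Both EV ctl libraries and WT-AP 3 and 5 first appear in the later table. A fit of the later table alone also held EV-PDGFRA 3 and K27M-AP 3 and 4, which shared in the estimate of the spread. In that fit 2 genes were called, Cdkn1a and Eda2r.

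**Figure D1:**
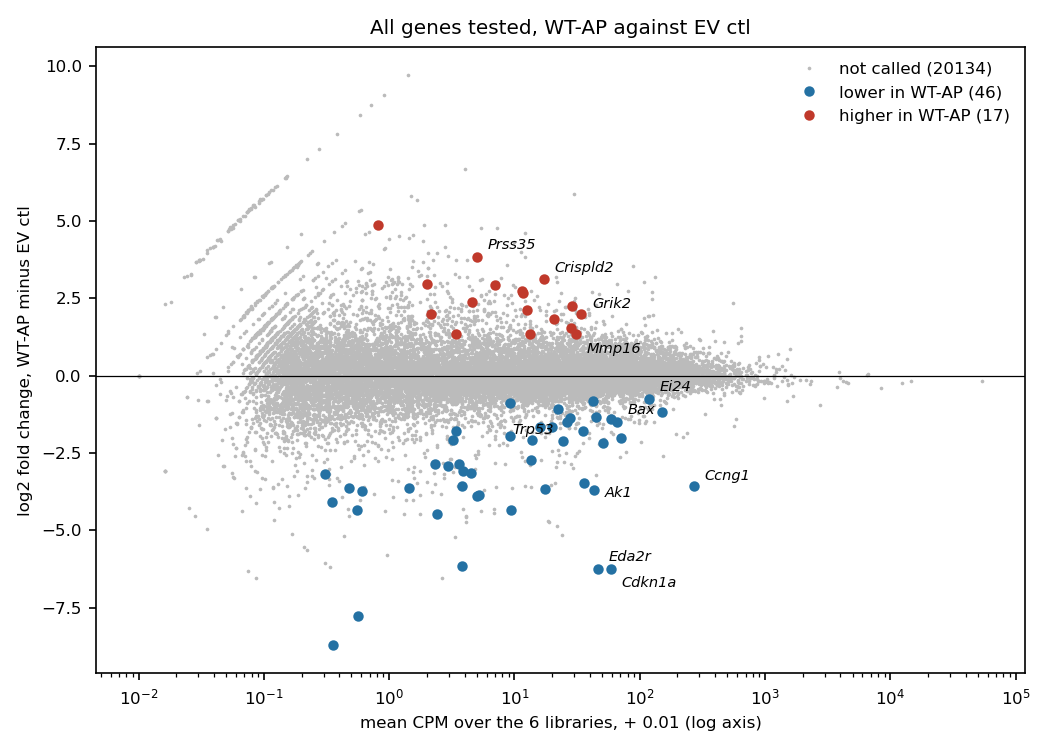
Log2 fold change of every gene tested, WT-AP minus EV ctl (vertical axis), against its mean level over the 6 libraries in CPM (log axis), with the 46 called falls in blue and the 17 called rises in red. Cdkn1a and Eda2r lie far below the other genes of their level, and Ccng1 is the most abundant of the genes that fell more than 4-fold.

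The targeted genes check the labels. Trp53 (chr11:69580359-69591873, + strand) was at 43 and 50.9 CPM in EV ctl 4 and 5 and 16.2, 15.2, 27.6 and 14.7 CPM in WT-AP 1, 2, 3 and 5. All WT-AP libraries were below both controls, and WT-AP 3 was the highest of its group. Trp53 fell by 1.35 in log2 units (adjusted p = 0.0194, SE 0.22), or 2.55-fold, and the call was lost without EV ctl 5 or WT-AP 1, 2 or 5, with values from -1.61 to -1.24. Counts over the whole gene do not show which alleles were cut. Atrx was at 238 and 182 CPM in EV ctl 4 and 5 and 259.7, 111, 157 and 125 CPM in WT-AP 1, 2, 3 and 5, so the library labelled WT-AP 1 was above both controls while the others were below both. It was not called (log2 fold change -0.36, SE 0.29, adjusted p = 0.707), and the hairpin label of WT-AP 1 is therefore not borne out by its Atrx count.

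H3f3a and H3f3b both encode H3.3, and the labels do not give the delivered sequence, so its reads may or may not be counted under either gene. H3f3a was at 350.5 and 189 CPM in EV ctl 4 and 5 and 272, 272, 231 and 233 CPM in WT-AP 1, 2, 3 and 5, with the WT-AP libraries between the controls (log2 fold change -0.10, SE 0.20, adjusted p = 0.887). H3f3b was at 751 and 626 CPM in EV ctl 4 and 5 and 546, 533, 546 and 559 CPM in WT-AP 1, 2, 3 and 5, below both controls in all 4 libraries but not called (log2 fold change -0.34, SE 0.13, adjusted p = 0.414). Pdgfra, the growth factor receptor gene of oligodendrocyte precursors, was delivered to neither group. Its level was 48.5 and 33.1 CPM in EV ctl 4 and 5 and 180.4, 256, 78.7 and 114 CPM in WT-AP 1, 2, 3 and 5, higher in every WT-AP library but not called (log2 fold change 1.95, SE 0.52, adjusted p = 0.188).

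Across the 6 lists of p53 pathway genes, 83 of 86 genes were tested, 16 fell (19.3%, against 0.228% of all genes) and 0 rose by edgeR, with 24 and 0 by DESeq2. The median log2 fold change of the 83 was -0.55, against -0.002 over all genes, and 64 of them were lower. At an unadjusted p below 0.05, 33 were lower and 0 higher (5.32% and 4.72% of all genes). Their summed level was 6046 and 5789 CPM in EV ctl 4 and 5 and 3192, 3227, 3155 and 3294 CPM in WT-AP 1, 2, 3 and 5. In this sum the 2 controls were close to each other and well above all WT-AP libraries. In single lists the controls were further apart, in opposite directions. Feedback regulators summed to 1540 and 1929 CPM in EV ctl 4 and 5, and growth arrest genes to 1201 and 772.5 CPM. Without EV ctl 5 the number that fell was 9 and without EV ctl 4 it was 19, with medians of -0.62 and -0.60. Without WT-AP 1, 2, 3 or 5 it was 12, 11, 11 and 10. With the replicate block 9 fell, with a median of -0.83. Of the single lists, growth arrest had a median of -0.20 without EV ctl 4, and feedback regulators and noncoding RNAs had -0.31 and -0.26 without EV ctl 5.

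**Figure D2:**
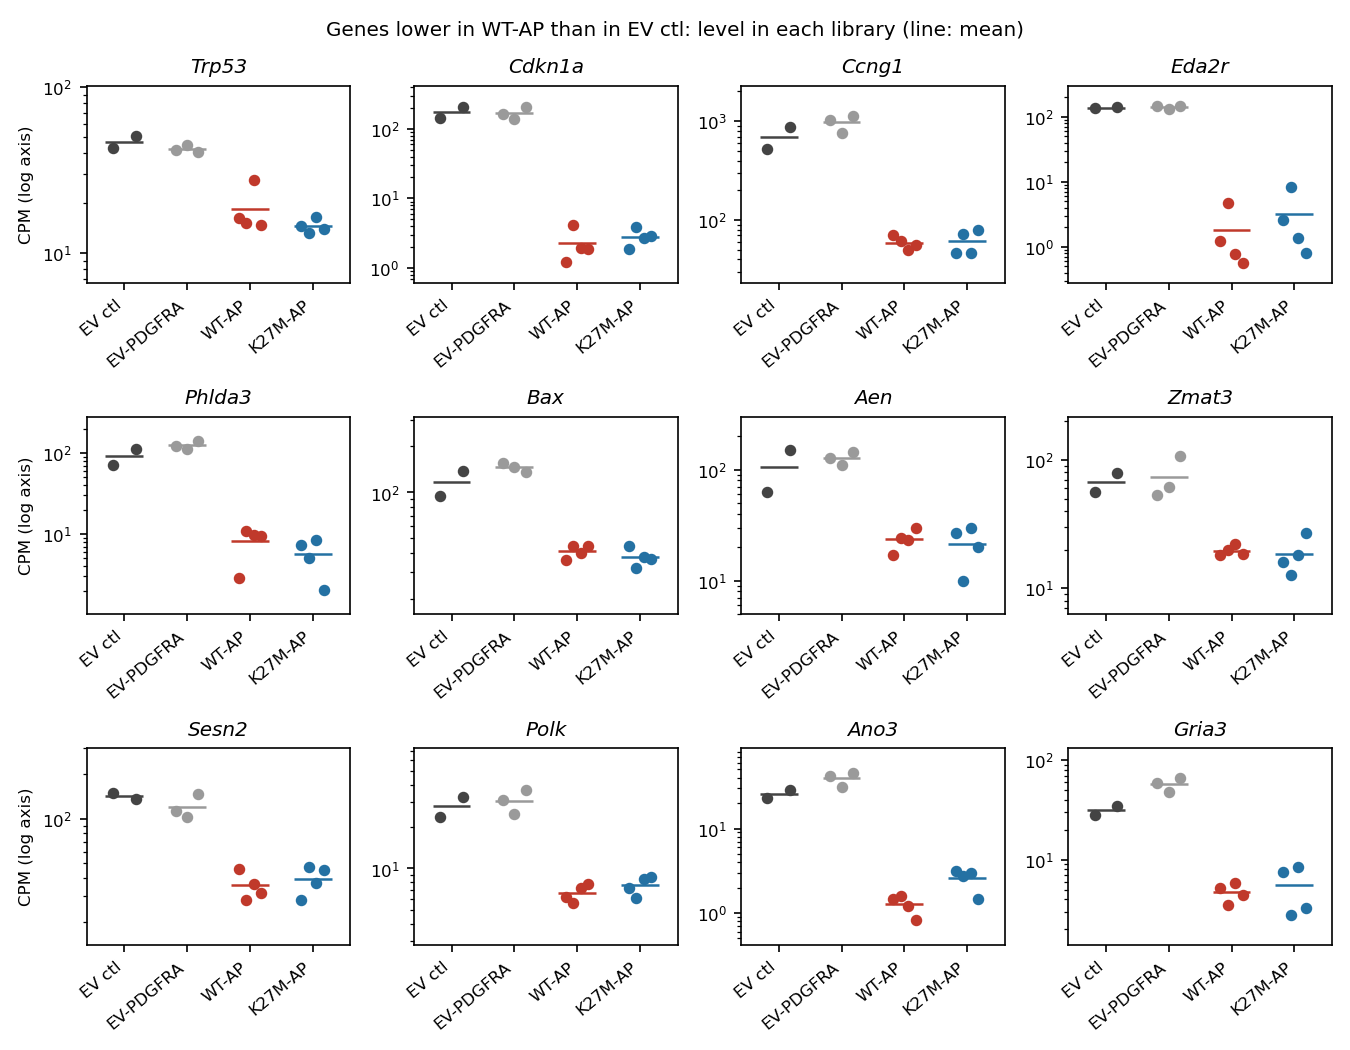
Level in each library (points, CPM on a log axis) and group mean (line) of Trp53, 9 of its target genes, Ano3 and Gria3 in EV ctl, EV-PDGFRA, WT-AP and K27M-AP. In every panel the WT-AP points lie below both EV ctl points, with Cdkn1a between 1.22 and 4.21 CPM in WT-AP against 142 and 206 CPM in EV ctl.

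Growth arrest was led by Cdkn1a (chr17:29090976-29100727, + strand), whose product p21 inhibits the cyclin-dependent kinases. It was at 142 and 206 CPM in EV ctl 4 and 5 and 1.22, 4.21, 1.97 and 1.89 CPM in WT-AP 1, 2, 3 and 5. All WT-AP libraries were far below both controls. Cdkn1a fell by 6.23 in log2 units (adjusted p = 2.82e-05, SE 0.42), or 75.1-fold, and was called under all 14 alternatives. It was the 1 called gene of the 14 tested in its list, whose median was -0.35. Psrc1, a spindle protein gene of that list that had the next smallest p, was at 129 and 78.4 CPM in EV ctl 4 and 5 and 25, 29.1, 21.6 and 22 CPM in WT-AP 1, 2, 3 and 5 and was not called (log2 fold change -2.08, SE 0.69, adjusted p = 0.307). Outside the lists, Rprm, the gene of reprimo, a p53-induced brake on entry into mitosis, fell by 1.32 on the log2 scale, from 58.7 and 90.4 CPM to 31.6, 31.7, 28.6 and 27.8 CPM. Tob1, an antiproliferative gene, fell by 1.5, from 57.1 and 35.5 CPM to 22.1, 15.8, 14.3 and 13.4 CPM. Rprm was not called without EV ctl 5, at -0.98, and Tob1 not without EV ctl 4 or WT-AP 2, 3 or 5 (values -1.81 to -1.12).

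Regulators that act on p53 itself included 3 that fell among 12 tested, with a list median of -0.59. Ccng1 (chr11:40748552-40755311, - strand), a target that recruits a phosphatase to Mdm2, was the most abundant of them at 522 and 876 CPM in EV ctl 4 and 5 and 70.2, 61, 49.3 and 56.1 CPM in WT-AP 1, 2, 3 and 5. It fell by 3.56 in log2 units (adjusted p = 3.91e-05, SE 0.27), or 11.8-fold, with no overlap between groups. Zmat3, which encodes an RNA-binding protein, was at 56.3 and 78.7 CPM in EV ctl 4 and 5 and 18.1, 19.8, 22.1 and 18.4 CPM in WT-AP 1, 2, 3 and 5. Rchy1, the ubiquitin ligase gene whose half-site is printed above, was at 55.7 and 63 CPM in EV ctl 4 and 5 and 33.1, 33.5, 32.6 and 36.6 CPM in WT-AP 1, 2, 3 and 5. These were falls of 1.78 and 0.80 on the log2 scale, and both calls were lost without EV ctl 5 or any of the 4 WT-AP libraries (ranges -2.0 to -1.53 and -0.89 to -0.73). Mdm2, the main ubiquitin ligase gene for p53, and Trp53inp1, a p53 cofactor gene, were singled out after their values were seen. Mdm2 was at 75.1 and 136 CPM in EV ctl 4 and 5 and 59.9, 67.5, 54.8 and 57.3 CPM in WT-AP 1, 2, 3 and 5, lower in all 4 libraries but not called (log2 fold change -0.82, SE 0.21, adjusted p = 0.17). Trp53inp1 was at 437 and 319 CPM in EV ctl 4 and 5 and 168, 148, 44.8 and 49.7 CPM in WT-AP 1, 2, 3 and 5, also lower in all 4 and not called (log2 fold change -1.88, SE 0.58, adjusted p = 0.269).

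Death genes held the largest share of falls, 6 of 20 tested, with a list median of -1.13. Eda2r (chrX:97333840-97377216, - strand) encodes a receptor of the tumour necrosis factor receptor family. Eda2r was at 133 and 139.9 CPM in EV ctl 4 and 5 and 1.22, 4.7, 0.786 and 0.556 CPM in WT-AP 1, 2, 3 and 5. It fell by 6.25 in log2 units (adjusted p = 0.00648, SE 0.89), or 76.1-fold, with WT-AP 2 the highest of its group. Tnfrsf10b (chr14:69767472-69784411, + strand), the mouse TRAIL receptor gene, was at 4.76 and 22.6 CPM in EV ctl 4 and 5 and 0.608, 1.54, 0.766 and 0.871 CPM in WT-AP 1, 2, 3 and 5. The controls were themselves far apart, with EV ctl 5 the higher. Tnfrsf10b fell by 3.86 in log2 units (adjusted p = 0.0183, SE 0.62), or 14.5-fold, and was not called without EV ctl 5 or WT-AP 1, 3 or 5, with values from -4.58 to -2.34. Fas, another death receptor gene, went from 10.2 and 6.84 CPM in EV ctl to 0.941, 1.47, 1.61 and 0.704 CPM in WT-AP, a fall of 2.85 on the log2 scale that was not called without EV ctl 5 or WT-AP 1, 2 or 5 (values -3.12 to -2.53).

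Among the effectors inside the cell, Bax, which permeabilises mitochondria, was at 95.5 and 138 CPM in EV ctl 4 and 5 and 36, 44.5, 40.3 and 44.4 CPM in WT-AP 1, 2, 3 and 5. It fell by 1.5 on the log2 scale and was called with any 1 library left out. Aen (chr7:78895854-78911209, + strand), a nuclease gene of apoptosis, was at 63.1 and 149.5 CPM in EV ctl 4 and 5 and 17.1, 24, 23.3 and 29.6 CPM in WT-AP 1, 2, 3 and 5. It fell by 2.18 in log2 units (adjusted p = 0.0281, SE 0.38), or 4.52-fold, and was called in only 1 of the 6 fits with a library left out, that without EV ctl 4 (values -2.67 to -1.44). Ei24, an endoplasmic reticulum protein gene, was the smallest called fall at 0.76 on the log2 scale, from 162 and 164 CPM to 100.5, 91.6, 91.9 and 103 CPM, and was not called without EV ctl 5 or WT-AP 2, 3 or 5. Bbc3 and Pmaip1, which encode the BH3-only proteins PUMA and NOXA, were singled out after their values were seen. Bbc3 was at 44.9 and 17.7 CPM in EV ctl 4 and 5 and 5.63, 6.67, 2.38 and 2.43 CPM in WT-AP 1, 2, 3 and 5 and Pmaip1 at 7.99 and 14.9 CPM in EV ctl 4 and 5 and 1.02, 2.4, 2.75 and 1.71 CPM in WT-AP 1, 2, 3 and 5. Both were lower in all WT-AP libraries and just missed the threshold (log2 fold change -2.87, SE 0.55, adjusted p = 0.052 for Bbc3, and log2 fold change -2.54, SE 0.49, adjusted p = 0.0534 for Pmaip1).

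In the list of p53-induced metabolism and stress genes, 4 of 20 fell and the median was -0.44. Ak1 (chr2:32621758-32635058, + strand), adenylate kinase, was at 116 and 111 CPM in EV ctl 4 and 5 and 11.4, 10.1, 7.17 and 6.17 CPM in WT-AP 1, 2, 3 and 5. It fell by 3.70 in log2 units (adjusted p = 0.00343, SE 0.47), or 13-fold. Phlda3 (chr1:135766119-135769136, + strand), whose product restrains the kinase Akt, was at 70.8 and 112 CPM in EV ctl 4 and 5 and 2.88, 10.8, 9.65 and 9.45 CPM in WT-AP 1, 2, 3 and 5. It fell by 3.47 in log2 units (adjusted p = 0.00648, SE 0.49), or 11.1-fold, and missed the threshold without EV ctl 5, at -3.12. Slc19a2 (chr1:164249046-164265385, + strand), a thiamine transporter gene, was at 38.4 and 61.9 CPM in EV ctl 4 and 5 and 8.96, 14, 11.9 and 11.5 CPM in WT-AP 1, 2, 3 and 5. It fell by 2.11 in log2 units (adjusted p = 0.00207, SE 0.25), or 4.32-fold. Sesn2, the sestrin gene that restrains mTORC1, was at 150.3 and 136 CPM in EV ctl 4 and 5 and 45.9, 28.3, 36.3 and 31.8 CPM in WT-AP 1, 2, 3 and 5, a fall of 2.01 on the log2 scale. Gdf15, a stress-induced secreted factor of the TGF-beta family and the only called member of the senescence-associated secreted list, went from 4.04 and 9.04 CPM to 0.294, 0.441, 0.236 and 0.222 CPM. It fell by 4.45 on the log2 scale and was called with any 1 library left out.

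Repair was represented by Polk, which fell, 1 of 10 tested in a list with a median of -0.25. Polk was at 23.6 and 32.4 CPM in EV ctl 4 and 5 and 6.2, 5.64, 7.25 and 7.73 CPM in WT-AP 1, 2, 3 and 5, a fall of 2.06 on the log2 scale with no overlap. Mgmt, which removes alkyl groups from guanine, was at 6.04 and 4.12 CPM in EV ctl 4 and 5 and 0.706, 0.735, 1.53 and 1.28 CPM in WT-AP 1, 2, 3 and 5 and missed the threshold (log2 fold change -2.25, SE 0.44, adjusted p = 0.0552). Rps27l, a ribosomal protein paralog, was at 162 and 197 CPM in EV ctl 4 and 5 and 68, 65.4, 101 and 111 CPM in WT-AP 1, 2, 3 and 5 and was not called (log2 fold change -1.06, SE 0.26, adjusted p = 0.158). Outside the list, Parp3, a poly(ADP-ribose) polymerase gene of double-strand break repair, fell by 1.95, from 11.8 and 24.4 CPM to 2.8, 3.75, 5.34 and 6.82 CPM. Parp3 was not called without EV ctl 5 or WT-AP 1, 2 or 3 (values -2.38 to -1.34). It overlaps Rrp9 on the opposite strand, from which its reads cannot be told apart because the strand setting is not given in the sources used here.

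Noncoding RNAs next to Cdkn1a fell as well. Trp53cor1 (chr17:29057430-29079179, - strand), also known as lincRNA-p21, starts or ends 11.8 kb from Cdkn1a and was at 18.6 and 7.97 CPM in EV ctl 4 and 5 and 0.882, 1.76, 0.55 and 0.445 CPM in WT-AP 1, 2, 3 and 5. It fell by 3.87 in log2 units (adjusted p = 0.00559, SE 0.53), or 14.7-fold. The short lincRNA-p21_1 fell by 4.08 on the log2 scale at levels of 1.21 and 0.602 CPM in EV ctl and at most 0.0784 CPM in WT-AP. It lies inside Trp53cor1 on the opposite strand, so its reads cannot be told apart from those of Trp53cor1, and it was called with a library left out only in the fit without WT-AP 3 (values -4.51 to -3.49). Trp53cor1 was the 1 called gene of 7 tested in its list, whose median was -0.63.

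Genes on no p53 list made up the other 30 falls, Trp53 among them. Ano3 (chr2:110655201-110950923, - strand), a membrane protein gene of the anoctamin family, was at 22.9 and 28.4 CPM in EV ctl 4 and 5 and 1.47, 1.57, 1.2 and 0.834 CPM in WT-AP 1, 2, 3 and 5. It fell by 4.34 in log2 units (adjusted p = 2.82e-05, SE 0.30), or 20.2-fold, and was called with any 1 library left out. Pqlc3 (chr12:16988648-17000408, - strand), a gene of the PQ-loop membrane proteins, was at 8.94 and 13 CPM in EV ctl 4 and 5 and 1.27, 1.37, 1.24 and 1.09 CPM in WT-AP 1, 2, 3 and 5. It fell by 3.14 in log2 units (adjusted p = 3.91e-05, SE 0.24), or 8.8-fold, with both groups narrow. Gria3 (chrX:41400854-41678601, + strand), a subunit of the AMPA glutamate receptor, was at 28.4 and 34.6 CPM in EV ctl 4 and 5 and 5.16, 3.55, 5.82 and 4.43 CPM in WT-AP 1, 2, 3 and 5. It fell by 2.73 in log2 units (adjusted p = 0.00559, SE 0.38), or 6.64-fold, and missed the threshold without EV ctl 5, at -2.60. The microRNA gene model Gm22413 lies within Gria3 on the same strand and fell too (0.79 and 0.695 CPM to at most 0.118 CPM), so its reads may be those of Gria3.

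Olfr1318, an olfactory receptor gene, had no read in any WT-AP library and 0.716 and 1.35 CPM in EV ctl, at least 67.8-fold lower when 3 counts over the group are taken as the floor. The lincRNA Gm13067 was at 2.13 and 1.18 CPM in EV ctl and at most 0.0245 CPM in WT-AP. The predicted gene 9530053A07Rik went from 5.07 and 17.3 CPM to 0.196, 0.245, 0.0393 and 0.148 CPM. These 3 were among the 5 largest fitted falls, at levels far below those of Cdkn1a and Eda2r.

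Other falls with EV ctl levels of at least 10 CPM were smaller. The predicted gene 9030617O03Rik fell by 3.65 on the log2 scale, from 39.5 and 50.9 CPM to 4.35, 5.93, 2.08 and 2.08 CPM. Exoc4, the exocyst subunit gene, fell by 1.18, from 248 and 229.5 CPM to 119, 115, 99.3 and 88 CPM, and 4933426M11Rik by 1.4, from 85.1 and 117 CPM to 31.1, 47.9, 36.9 and 36.9 CPM. All 3 were called with any 1 library left out. Fbxw9, an F-box gene, fell by 1.67, Lrrc28, a leucine-rich repeat gene, by 1.66, the histone variant gene H2afj by 1.07 and Kctd11, a BTB-domain gene, by 0.88. Kctd11 lies 286.4 kb from Trp53 on chromosome 11, and H2afj and Kctd11 were called in none of the 6 fits with a library left out. Lrrc28 was called only in the fit without EV ctl 4, with values of -1.67 to -1.65 over the 6.

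The remaining falls were at lower levels, with an EV ctl mean under 10 CPM. They included Osmr, the oncostatin M receptor gene, which fell by 3.07 on the log2 scale (4.35 and 14.3 CPM to 1.06, 1.08, 0.943 and 1.33 CPM), and Rarg, the gamma retinoic acid receptor gene, by 1.79 (6.65 and 6.26 CPM to 1.75, 1.57, 2.08 and 2.08 CPM). Klhdc7a fell by 3.58 (9.57 and 9.89 CPM to 1.22, 0.686, 0.57 and 0.778 CPM) and Ggta1, an alpha-galactosyltransferase gene, by 2.91. Ass1, the argininosuccinate synthase gene, fell by 4.33, Tacr1, the substance P receptor gene, by 3.64, Sec14l5 by 3.72 and Celf5, an RNA-binding protein gene, by 3.63. For 1700007K13Rik and 9230114K14Rik the falls were 2.84 and 2.08. Of the 6 fits with a library left out, Ass1 (-4.65 to -4.0), Osmr (-3.69 to -1.99), Tacr1 (-4.15 to -2.86) and Celf5 (-4.17 to -2.78) were called only in that without EV ctl 4. Ggta1 (-3.47 to -1.98) and Klhdc7a (-3.84 to -3.44) were not called without EV ctl 5 or WT-AP 2, 3 or 5, nor Sec14l5 (-4.07 to -3.34) without EV ctl 5 or WT-AP 1, 3 or 5. 9230114K14Rik was lost without EV ctl 5 or WT-AP 2 or 3 (-2.31 to -1.80), and 1700007K13Rik was called in none of the 6 (-3.15 to -2.56). Rarg was called with any 1 library left out.

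Of the 17 rises 15 were on none of the gene lists, and they are described by the roles of the single genes. Grik2 (chr10:49094833-49788766, - strand), a kainate-type glutamate receptor subunit, was at 15.4 and 7.56 CPM in EV ctl 4 and 5 and 55.5, 60.6, 32.6 and 34 CPM in WT-AP 1, 2, 3 and 5. It rose by 1.99 in log2 units (adjusted p = 0.0469, SE 0.37), or 3.97-fold. Frrs1l (chr4:56957173-56990391, - strand), whose product helps assemble AMPA receptors, was at 6.19 and 9.08 CPM in EV ctl 4 and 5 and 31.2, 22.3, 31.5 and 24.6 CPM in WT-AP 1, 2, 3 and 5 and rose by 1.84 in log2 units (adjusted p = 0.0042, SE 0.24), or 3.59-fold. Grik2 and Gria3 were the called genes of the 22 glutamate receptor genes tested, in opposite directions, and 17 of the 22 were higher, with a median of 0.95. Over all genes tested 49.8% were higher. Frrs1l was called with any 1 library left out, whereas Grik2 was called only in the fit without EV ctl 4 (1.55 to 2.60 over the 6).

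**Figure D3:**
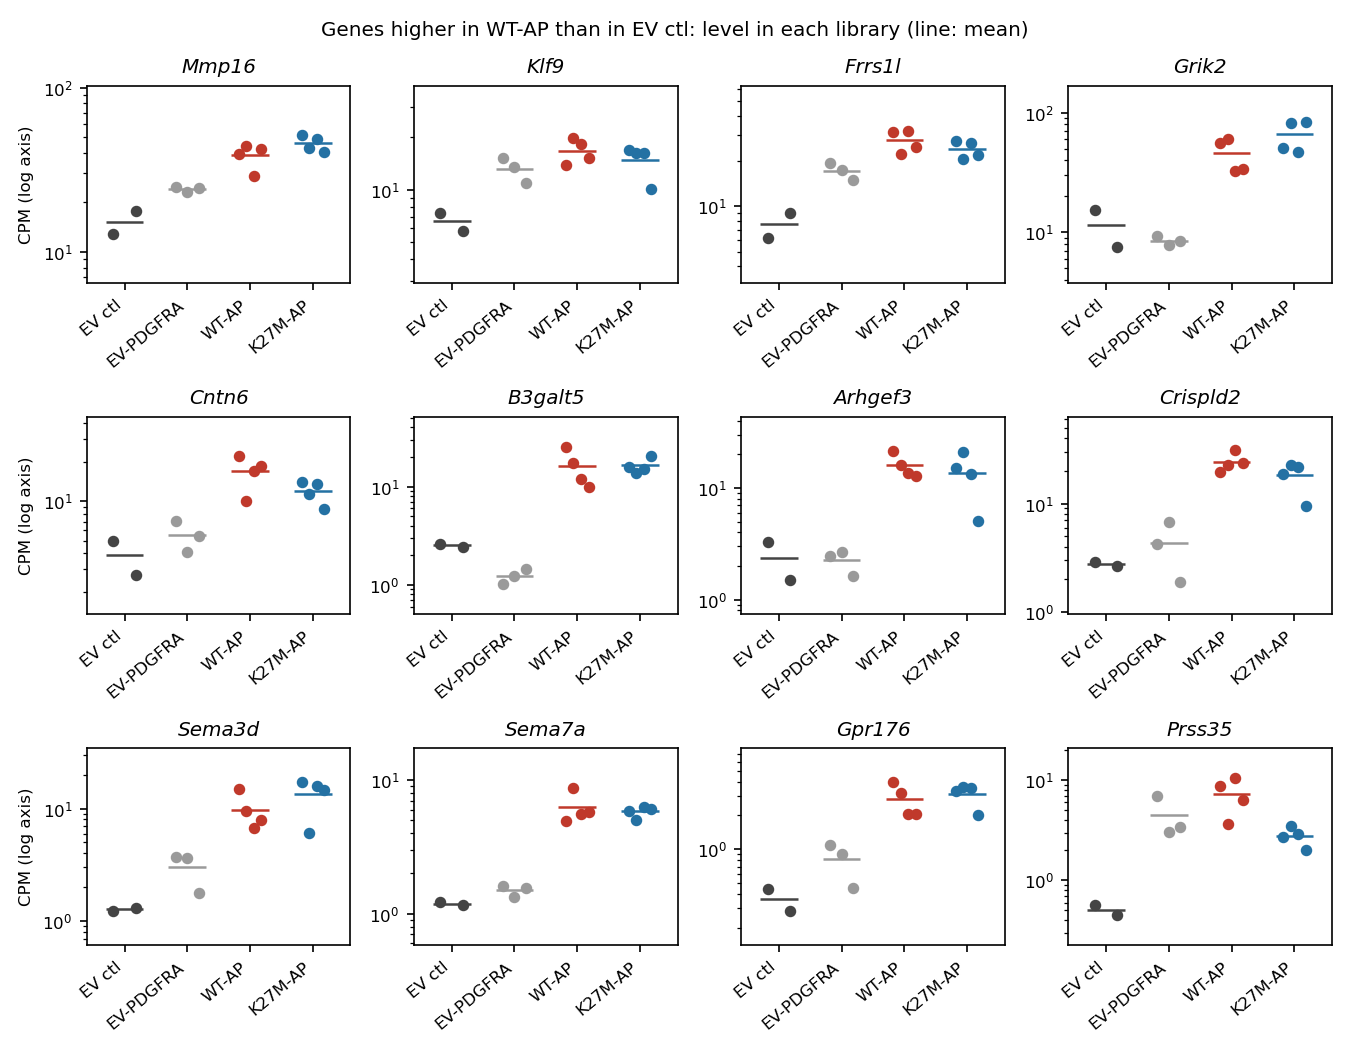
Level in each library (points, CPM on a log axis) and group mean (line) of 12 of the 17 genes higher in WT-AP. Every WT-AP point lies above both EV ctl points, and for Klf9 and Prss35 the EV-PDGFRA points overlap those of K27M-AP.

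Adhesion and guidance genes followed. Cntn6 (chr6:104492790-104863406, + strand), a contactin of the neuronal surface, was at 5 and 2.73 CPM in EV ctl 4 and 5 and 22.2, 10.1, 17 and 18.6 CPM in WT-AP 1, 2, 3 and 5. It rose by 2.13 in log2 units (adjusted p = 0.0342, SE 0.38), or 4.39-fold, the 1 called gene of 15 tested in the contactin list. Pcdha2 (chr18:37005203-37187657, + strand), an alpha protocadherin gene, was at 10.03 and 6.43 CPM in EV ctl 4 and 5 and 52.1, 39.8, 39.7 and 25.1 CPM in WT-AP 1, 2, 3 and 5 and rose by 2.25 in log2 units (adjusted p = 0.00979, SE 0.33), or 4.76-fold. The alpha protocadherins share their last exons, so which member rose is uncertain. Sema7a, a membrane-anchored semaphorin gene, rose by 2.39 on the log2 scale (1.21 and 1.17 CPM to 4.96, 8.65, 5.58 and 5.73 CPM), and Sema3d, a secreted semaphorin gene, by 2.94 (1.23 and 1.32 CPM to 15, 9.48, 6.76 and 7.84 CPM). Sema7a was called with any 1 library left out. Cntn6 was not called without EV ctl 5 or WT-AP 1, 3 or 5, Sema3d not without either control or WT-AP 1, 2 or 5, and Pcdha2 not without EV ctl 5, where it was at 1.95.

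Genes of the matrix and the cell surface included Mmp16 (chr4:17852893-18119145, + strand), a membrane-type matrix metalloproteinase gene, at 12.9 and 17.6 CPM in EV ctl 4 and 5 and 39.2, 44.1, 29 and 42.5 CPM in WT-AP 1, 2, 3 and 5. It rose by 1.34 in log2 units (adjusted p = 0.0135, SE 0.21), or 2.54-fold, and was called with any 1 library left out. B3galt5 (chr16:96235801-96319859, + strand) was at 2.63 and 2.41 CPM in EV ctl 4 and 5 and 25.5, 17.2, 11.9 and 9.97 CPM in WT-AP 1, 2, 3 and 5 and rose by 2.68 in log2 units (adjusted p = 0.00559, SE 0.37), or 6.41-fold. Crispld2 (chr8:119992438-120052793, + strand), a secreted cysteine-rich protein gene, was at 2.9 and 2.63 CPM in EV ctl 4 and 5 and 19.4, 22.8, 31.6 and 23.7 CPM in WT-AP 1, 2, 3 and 5 and rose by 3.14 in log2 units (adjusted p = 0.0155, SE 0.49), or 8.8-fold. In both genes the lowest WT-AP library was well above the higher control. Crispld2 overlaps Gm20388 on the same strand, at a mean of 210.8 CPM, so reads could be split between them. Neither was called without EV ctl 5, at 2.61 for B3galt5 and 3.06 for Crispld2. Adamts17, a metalloproteinase gene, rose by 1.37 (1.87 and 1.45 CPM to 4.04, 4.46, 3.6 and 5.04 CPM), and Prss35, a serine protease-like gene, by 3.83 (0.569 and 0.451 CPM to 8.72, 3.63, 10.5 and 6.34 CPM). Adamts17 was called only in the fit without EV ctl 4 (1.18 to 1.56 over the 6), and Prss35 was not called without EV ctl 5, at 3.66.

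Signalling and transcription genes were the rest. Arhgef3 (chr14:27114899-27403911, + strand), a guanine nucleotide exchange factor gene, was at 3.25 and 1.49 CPM in EV ctl 4 and 5 and 21.6, 16.1, 13.5 and 12.9 CPM in WT-AP 1, 2, 3 and 5 and rose by 2.76 in log2 units (adjusted p = 0.0497, SE 0.52), or 6.75-fold. Klf9 (chr19:23141226-23168134, + strand), a Kruppel-like transcription factor gene, was at 7.38 and 5.81 CPM in EV ctl 4 and 5 and 13.9, 19.8, 18.3 and 15.2 CPM in WT-AP 1, 2, 3 and 5 and rose by 1.35 in log2 units (adjusted p = 0.0466, SE 0.25), or 2.54-fold. Both were called only in the fit without EV ctl 4, with 2.29 to 3.43 and 1.17 to 1.53 over the 6 fits. Arhgap24, a GTPase-activating protein gene, rose by 2.0 (0.496 and 0.94 CPM to 3.57, 2.94, 2.65 and 2.37 CPM) and Gpr176, an orphan receptor gene, by 2.96 (0.441 and 0.282 CPM to 3.98, 3.19, 2.06 and 2.06 CPM). The predicted gene 3632451O06Rik rose by 1.56 (12.9 and 11.5 CPM to 46.6, 27.7, 39.4 and 30.2 CPM). Arhgap24 was called in none of the 6 fits with a library left out (1.61 to 2.52), 3632451O06Rik only in that without WT-AP 2 (1.41 to 1.67), and Gpr176 in all but that without EV ctl 5, where it was at 2.66. Tceal6, an X-linked elongation factor-like gene, was at 0 and 0.0752 CPM in EV ctl 4 and 5 and 0.902, 1.13, 1.2 and 1.48 CPM in WT-AP.

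The S phase and mitosis lists were higher in WT-AP but held no call and turned with the replicate number as a block. All 26 S phase genes and all 26 mitosis genes were higher, with medians of 0.79 and 1.07, but edgeR called 0 in either list, as did DESeq2, and 0 had an unadjusted p below 0.05. The mitosis list summed to 3247 CPM in EV ctl 4, 441.4 CPM in EV ctl 5 and 3592 to 4364 CPM in WT-AP, so most of the difference from the controls was in EV ctl 5. Without EV ctl 5 its median was 0.26 and without EV ctl 4 it was 3.17. With the replicate number as a block 4 of the S phase genes and 10 of the mitosis genes were higher, with medians of -0.33 and -0.057. Cdkn2a, which encodes the inhibitors p16 and p19ARF, was at 31 and 47.3 CPM in EV ctl 4 and 5 and 128, 118, 168 and 162 CPM in WT-AP 1, 2, 3 and 5, higher in all 4 libraries but not called (log2 fold change 1.88, SE 0.37, adjusted p = 0.0544). Cdk6, a G1 kinase gene, was at 5.86 and 1.52 CPM in EV ctl 4 and 5 and 26.5, 12.8, 15.8 and 12.8 CPM in WT-AP 1, 2, 3 and 5 and was not called (log2 fold change 2.20, SE 0.75, adjusted p = 0.317).

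The senescence-associated secreted list showed the same split of the controls, summing to 175.2 CPM in EV ctl 4, 2663 CPM in EV ctl 5 and 371.6 to 1227 CPM in WT-AP. Its median was -0.74, and 2.07 without EV ctl 5. Met, the hepatocyte growth factor receptor gene, was at 2.19 and 103 CPM in EV ctl 4 and 5 and 0.902, 1.32, 3.97 and 1.74 CPM in WT-AP 1, 2, 3 and 5, high in EV ctl 5 alone, and was not called (log2 fold change -4.72, SE 1.04, adjusted p = 0.0942). Met was at -0.15 without EV ctl 5.

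**Figure D4:**
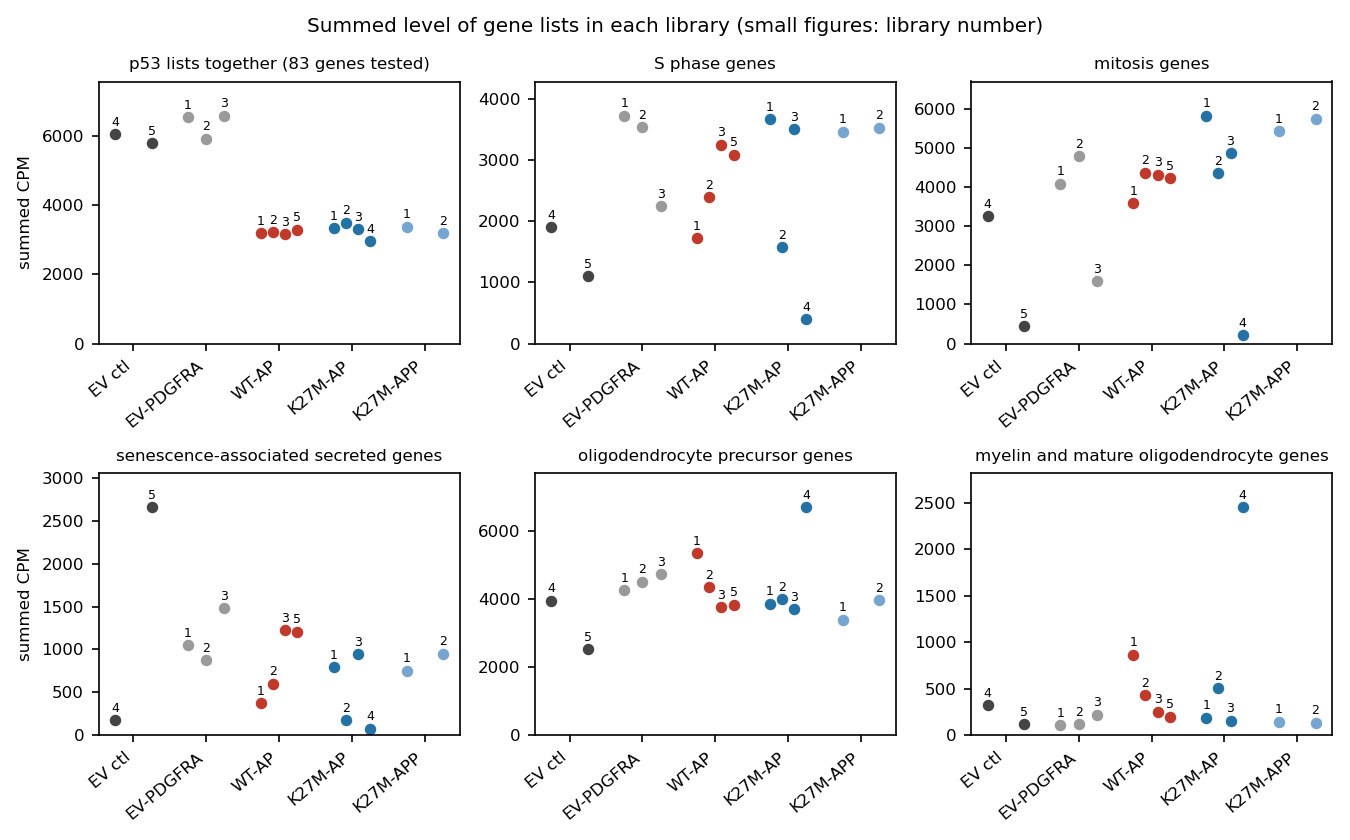
Summed level (CPM) of 6 gene lists in each of the 15 preneoplastic libraries, with small figures for library numbers. The p53 lists separate EV ctl and EV-PDGFRA (5789 to 6584 CPM) from WT-AP (3155 to 3294 CPM) and the K27M groups (2950 to 3490 CPM), while mitosis genes are low in EV ctl 5 and K27M-AP 4.

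The oligodendrocyte precursor and myelin lists leaned higher with 0 members called by edgeR. In the oligodendrocyte precursor list 17 of 18 genes were higher with a median of 1.13, and in the myelin list 15 of 16 with a median of 1.48. At an unadjusted p below 0.05 edgeR had 6 and 3 of them higher, against 4.72% of all genes. DESeq2 called 3 and 1 higher, and 228 of all genes. The precursor median was 0.67 without WT-AP 1 and 0.53 on the later table alone, and the myelin median 0.74 on the later table alone and 2.85 with the replicate block. Cntn1, a contactin gene of precursors and neurons, was at 82.6 and 99.2 CPM in EV ctl 4 and 5 and 372, 231, 234 and 203 CPM in WT-AP 1, 2, 3 and 5 (log2 fold change 1.52, SE 0.32, adjusted p = 0.0779). Luzp2, a marker of precursors, was at 0.276 and 0.301 CPM in EV ctl 4 and 5 and 5.49, 5.76, 1.87 and 4.09 CPM in WT-AP 1, 2, 3 and 5 (log2 fold change 3.89, SE 1.02, adjusted p = 0.181). Ugt8a, the enzyme gene of galactolipid synthesis for myelin, was at 6.13 and 9.59 CPM in EV ctl 4 and 5 and 45.5, 28.8, 23.4 and 28.2 CPM in WT-AP 1, 2, 3 and 5 (log2 fold change 2.0, SE 0.58, adjusted p = 0.233). All 3 were higher in every WT-AP library than in the controls, and none passed the threshold. The myelin list summed to 324.1 and 117.4 CPM in EV ctl and to 867, 432.6, 253.5 and 199.6 CPM in WT-AP 1, 2, 3 and 5, so the group sums overlapped. Precursor sums overlapped too, at 3965 and 2529 CPM in EV ctl 4 and 5 and 3761 to 5357 CPM in WT-AP. Without EV ctl 5, 12 of the 18 precursor genes were higher. In the astrocyte list 12 of 20 genes were higher with a median of 0.18, which was 0.95 without EV ctl 4 and -0.47 without EV ctl 5. Prom1, a stem cell surface gene, was at 4.3 and 2.37 CPM in EV ctl 4 and 5 and 39.9, 50.5, 15.7 and 15.3 CPM in WT-AP 1, 2, 3 and 5 (log2 fold change 3.19, SE 0.80, adjusted p = 0.163). Most other members of the neural stem cell list went the other way, with 8 of 20 higher and a median of -0.058. That median was 0.34 without EV ctl 4 and -0.33 without EV ctl 5.

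The remaining lists held 0 genes called by edgeR. In the MHC class I and II list 5 of 15 genes were lower at an unadjusted p below 0.05, against 5.32% of all genes. DESeq2 called 2 of the list lower, and 220 of all genes. Of the 15 genes 13 were lower, with a median of -0.66. Without EV ctl 4 this median was -0.023 and 7 of the 15 were higher. Tap1, the peptide transporter gene, was at 24.3 and 12.3 CPM in EV ctl 4 and 5 and 4.14, 5.64, 3.05 and 2.72 CPM in WT-AP 1, 2, 3 and 5 (log2 fold change -2.24, SE 0.44, adjusted p = 0.0576). In the collagen and matrix list 5 of 23 genes were higher at an unadjusted p below 0.05, against 4.72% of all genes. DESeq2 called 4 of the list higher, and 228 of all genes. Of the 23 genes 18 were higher, with a median of 0.63. The median was 0.29 on the later table alone and 1.64 without EV ctl 5. Lama2, a laminin chain gene, was at 0.147 and 0.376 CPM in EV ctl 4 and 5 and 2.82, 1.94, 2.08 and 2.93 CPM in WT-AP 1, 2, 3 and 5 (log2 fold change 3.21, SE 0.62, adjusted p = 0.0525). Kdr, an endothelial receptor gene, was at 1.3 and 1.73 CPM in EV ctl 4 and 5 and 5.67, 3.53, 3.38 and 9.25 CPM in WT-AP 1, 2, 3 and 5 (log2 fold change 1.85, SE 0.46, adjusted p = 0.161), and the part of other cell types in these values was not tested. The telomere list and the list of ATRX, H3.3 and its chaperones had 0 called of 14 tested each by edgeR and DESeq2. Their medians were 0.12 and 0.17, and 0 and 1 genes were lower at an unadjusted p below 0.05 (5.32% of all genes). The telomere median was -0.11 without EV ctl 5, and that of the chaperone list 0.0037 with the replicate block.

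The same 63 genes were then read in K27M-AP against EV-PDGFRA, which share no library with WT-AP and EV ctl but carry the Trp53 and Atrx changes with the mutant histone, against a control with added Pdgfra. There 1046 genes were called (5.18%), 492 higher (2.44%) and 554 lower (2.74%). Of the 46 falls, 46 were lower (51.2% of all genes were higher) and 44 were called, all except Tacr1 and Celf5, with a median of -3.15 against -2.88 in WT-AP. Of the 17 rises, 16 were higher and 11 were called, with a median of 1.73 against 2.25. Those not called were Klf9, 3632451O06Rik, Frrs1l, Arhgap24, Cntn6 and Prss35. In a fit of these 7 libraries alone, which shares no estimate of the spread with the other comparison, 36 of the falls (background 1.1%) and 7 of the rises (background 0.885%) were called. With an EV-PDGFRA library left out, 37 to 41 of the falls and 7 to 9 of the rises were called. With a K27M-AP library left out these were 43 to 45 and 10 to 12, highest without K27M-AP 4, the library low in mitosis genes. With all 23 libraries in the fit, 41 and 8 were called.

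**Figure D5:**
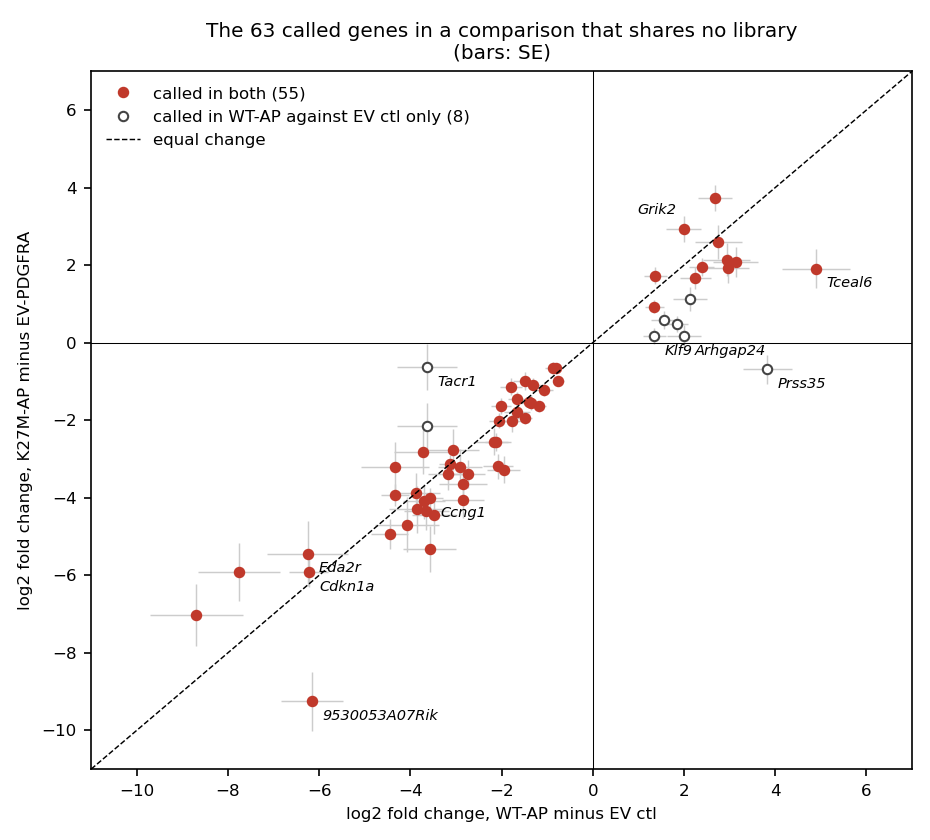
Log2 fold change of the 63 genes in WT-AP minus EV ctl (horizontal axis) and K27M-AP minus EV-PDGFRA (vertical axis), with SE bars and a dashed line of equal change. The 55 filled points were called in the same direction in both, and Prss35 is the gene with opposite signs.

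Side by side, Cdkn1a was at 164, 140.0 and 206 CPM in EV-PDGFRA 1, 2 and 3 and 1.85, 3.87, 2.69 and 2.9 CPM in K27M-AP 1, 2, 3 and 4, a log2 fold change of -5.91. Trp53 was at 42.1, 44.6 and 40.9 CPM and 14.6, 13.2, 16.5 and 14 CPM in the same libraries. Ccng1 was at 1033, 760.5 and 1136 CPM and 46, 73, 46.2 and 78.5 CPM, a log2 fold change of -4.0. In each of these genes the K27M-AP levels fell in or near the range of WT-AP. Among the rises, Grik2 was at 9.33, 7.9 and 8.43 CPM in EV-PDGFRA and 50.8, 82.2, 46.7 and 83.3 CPM in K27M-AP, and B3galt5 at 1.01, 1.23 and 1.46 CPM and 15.9, 13.8, 15.2 and 20.6 CPM. Over the p53 lists, 28 of the 83 genes fell (33.7%) and 0 rose by edgeR in K27M-AP against EV-PDGFRA, where 1 was higher at an unadjusted p below 0.05 (11.9% of all genes), with a median of -0.62.

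Measured against EV-PDGFRA in place of EV ctl, with the same WT-AP libraries, 265 genes were called (1.31%), and 44 of the 46 falls (background 0.812%) and 9 of the 17 rises (background 0.5%) passed there in the same direction. The genes were chosen by these same WT-AP libraries, so a high share was largely built in. These counts stand side by side only. Frrs1l was at 19.3, 17.3 and 15 CPM in EV-PDGFRA, above its 6.19 and 9.08 CPM in EV ctl, and Klf9 at 15.2, 13.5 and 11 CPM against 7.38 and 5.81 CPM. The levels of both were thus closer to WT-AP in the control with Pdgfra than in the empty vector control.

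Whether a gene's change differed between the 2 comparisons was tested by their difference. It was called for 3 genes (0.0149%), 1 of them among the 63. Prss35 rose in WT-AP by 3.83 and was at -0.69 in K27M-AP, a difference of 4.52 on the log2 scale (SE 0.63, adjusted p = 0.0481), with 6.92, 3.04 and 3.44 CPM in EV-PDGFRA and 2.7, 3.49, 2.88 and 2.03 CPM in K27M-AP. Of the 46 falls 0 were called by edgeR and 0 by DESeq2, while DESeq2 called 3 of the 17 rises. An unadjusted p below 0.05 was reached by 4 of the 46 falls and by 8 of the 17 rises, and by 7.65% of all genes. These genes were chosen by WT-AP minus EV ctl, which is part of the difference. Their shares therefore cannot be weighed against that of all genes. Bcl11a, a zinc finger transcription factor gene, was at 1.62 and 1.58 CPM in EV ctl 4 and 5 and 2.27, 1.23, 1.26 and 2.33 CPM in WT-AP 1, 2, 3 and 5, and at 0.229, 0.397 and 0.206 CPM in EV-PDGFRA and 8.95, 12.2, 6.67 and 10.5 CPM in K27M-AP. Its difference was -4.94 (adjusted p = 0.00471), from a WT-AP value near 0. Zfp711, an X-linked zinc finger gene, was at 5.44 and 5.34 CPM in EV ctl 4 and 5 and 10.2, 14.5, 8.94 and 12.6 CPM in WT-AP 1, 2, 3 and 5, and at 2.11, 2.56 and 3.38 CPM and 29.1, 28.3, 30.6 and 25.9 CPM in the other groups. Its difference was -2.31 (adjusted p = 0.0282), with the K27M-AP libraries above those of EV ctl, WT-AP and EV-PDGFRA. K27M-APP 1 and 2 were near K27M-AP, at 23.45 and 25.98 CPM for Zfp711 and 8.8 and 6.28 CPM for Bcl11a.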

How the data were processed

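The authors deposited raw, unscaled read counts for 39017 genes in an earlier table of 21 columns and a later one of 22. Per the labels, ribosomal RNA was depleted and libraries were sequenced from both ends. Software listed in the submitters' processing notes, with no role or order, is featureCounts 1.4.4, STAR 2.3.0e, SAMtools 0.1.19 and Trimmomatic 0.32, and the build listed is mm10. The strand setting and the handling of reads with several matches are not given in the sources used here. Of the earlier table, 8 columns were not used here. Coordinates are from GENCODE M21 (GRCm38).

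Counts were fitted with edgeR 4.0.16 in R 4.3.3 (TMM scaling, filterByExpr with a minimum count of 10, quasi-likelihood test, Benjamini-Hochberg adjustment over 20197 genes) on all 15 preneoplastic libraries, which left 10 residual degrees of freedom. CPM are counts relative to the TMM-scaled total. Calls are genes with an adjusted p under 0.05. The procedure was tested on simulated data. The members and the 39 gene lists were chosen with earlier results of these data known, and lists are given as counts and medians only.

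Named were the delivered genes and, with full statistics, the 12 largest falls and rises of at least 10 CPM (9 rises qualified). Predicted genes and sex markers (Xist, Tsix and Y-linked genes) were left out of these, while X-linked genes such as Eda2r and Gria3 were kept. Every other called gene was named, and, as examples, members of lists that were called, highest or had the smallest p. A further gene is not reported here. Alternatives were DESeq2 1.42.0 and its size factors, no filter, all 23 libraries, only the compared groups, the replicate block, a term for the first table of a library, the later table alone, and leaving out each library.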

Additional observations from a re-analysis of the deposited data

Results flagged for a closer look

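In 12 of 176 gene and group pairs, 1 library of WT-AP or K27M-AP stood far from the other 3, and chance gives about 5% of such groups. In WT-AP 3 this was Trp53 at 27.6 CPM (the others 14.7 to 16.2), H2afj at 18.6 CPM (15.2 to 15.7) and Kctd11 at 6.66 CPM (7.38 to 7.41). In WT-AP 2 it was Eda2r at 4.70 CPM (0.556 to 1.22) and Gm13067 at 0.0245 CPM (0 in the others). Of the K27M-AP libraries, the first was apart in Olfr1318 at 0.037 CPM, the second in 9030617O03Rik at 7.04 CPM, Exoc4 at 123 CPM and Tap1 at 14.1 CPM, and the fourth in Osmr at 4.27 CPM, Ei24 at 108.7 CPM and Klf9 at 10.1 CPM. All WT-AP libraries lay on the called side of both EV ctl libraries in the called genes among these.

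The WT-AP effect and the K27M-AP effect differed by the test of their difference in Bcl11a (-4.94 on the log2 scale), Zfp711 (-2.31) and Prss35 (4.52). What sets these genes apart was not tested.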

How the results depend on the processing

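All 63 called genes kept their direction under the 14 alternatives run, but the number of calls moved. For WT-AP against EV ctl it was 63, and 448 with DESeq2 as the test (228 higher), 13 with only the compared groups, 37 with the replicate block, 2 on the later table alone, and 31 to 350 with a library left out. Of the 17 rises the replicate block kept 4, all 23 libraries 5, only the compared groups 1 and the later table alone 0. Of the 46 falls the replicate block kept 18, all 23 libraries 34, only the compared groups 10 and the later table alone 2. The fit of only the compared groups has fewer libraries to estimate the spread, but what lost these calls was not tested. For WT-AP against EV-PDGFRA the 265 calls became 1002 (DESeq2), 162 (all 23 libraries), 618 (only the compared groups), 610 (replicate block) and 72 to 157. For K27M-AP against EV-PDGFRA the 1046 calls became 2521 (DESeq2), 686 (all 23 libraries), 373 (only the compared groups), 1585 (table term) and 230 to 1032. For the difference of the effects the 3 calls became 132 (DESeq2), 1 (only the compared groups), 1 (table term), 0 with the replicate block by edgeR (1195 at an unadjusted p below 0.05), and 1 to 12. WT-AP and EV ctl share only the replicate number 5, and deviations of these 2 libraries correlated by 0.291. Over the 7 same-numbered pairs 5 correlated by 0.291 to 0.357 and the other two by 0.0459 and 0.069, and the labels do not say what a number stands for, so whether numbers pair the libraries is not settled. Log2 fold changes that reversed were of genes that were not called: with the replicate block H3f3a (0.058), Mki67 (-0.18) and Top2a (-0.32), without EV ctl 4 H3f3a (0.42), and without WT-AP 5 Bcl11a (-0.018). With a library left out these spanned -0.49 to 0.42 for H3f3a and -0.018 to 0.29 for Bcl11a. The cause was not tested. EV ctl has 2 libraries, which limits the precision.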

Other observations

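Some lists had more members with separated groups than all genes had. Of 19 DNA damage response genes tested edgeR called 0, and 18 were higher in WT-AP with a median log2 fold change of 0.74. In 13 of them the WT-AP libraries lay above both controls, a separation seen in 10.6% of all genes. Without EV ctl 5 this median was 0.48, and with the replicate number as a block it was 0.024, with 10 of 19 higher. Of 22 glutamate receptor genes 10 were separated in the same way, of 18 oligodendrocyte precursor genes 10, and of 21 interferon response genes 9. The medians of the glutamate receptor and precursor lists were 1.08 and 1.41 without EV ctl 5 and 1.03 and 1.46 without EV ctl 4. The interferon response median was 0.36, and 0.16 without WT-AP 1 and 1.09 without EV ctl 4. Neurogenic progenitor genes had a median of -0.11 with 6 of 16 higher, and their median was 1.47 without EV ctl 4, -0.83 without EV ctl 5 and 0.45 with the block.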
